A study of Mus musculus with 42 samples.

Results

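Anti-HA magnetic beads were incubated with lysates of mouse embryonic stem cells that carried no HA tag, so the RNA left on the beads after washing is the background of the pull-down. The material described here is the untagged part of experiment 2, namely 3 IP libraries (RNA on the beads) and 3 input libraries (RNA of the lysate), chosen by their titles and descriptions, which is 6 of the 42 libraries of the series. The untagged cells were of the 129S6/SvEvTac strain, held a GFP reporter named GFP_5xT71BS (yGlob) and a stable FLAG-Cas9::T2A::Blasticidin transgene, and grew on gelatin with LIF. The tagged cells used for comparison hold the same reporter and Cas9 transgene and an HA-AVI tag on Tnrc6a, and 2 further tagged lines lack Trim71 (Trim71-/-) or Ago2 (Ago2-/-) and are called Trim71KO and Ago2KO below. The FLAG-Cas9 and reporter transgenes were therefore shared by all groups, controls included. Cells were grown in triplicate, and no label says whether a line is 1 clone or whether an input and an IP of the same number came from the same lysate. P-values therefore rest on the spread between libraries, estimated over all groups of a fit, and this spread may be technical in part.

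In an RNA immunoprecipitation an antibody on beads captures a protein together with the RNA bound to it, and the RNA on the beads is set against the RNA of the whole lysate. RNA can also reach the beads without the intended bait, by sticking to the bead or antibody or by travelling with another protein that the antibody holds. An untagged control measures this background, which sets the floor for what can be called bound to the tagged protein. TNRC6A, the tagged protein of the other lines, is a GW182 protein that links Argonaute to the deadenylation machinery.

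Library depth was 16296447 to 18678744 counts over the 6 libraries, and 19778 genes passed the filter on low counts, of 19866 with a row. Levels below are in CPM, read counts divided by library size, after TMM scaling, which evens out libraries in which a few RNAs take a large share. IP replicate 2 stood apart from the other IP libraries: for 84 of the 89 genes found higher on the beads it was the IP value nearest the input. Naive pluripotency markers were all measured (15 of 15), and their summed level ran from 9602 to 9876 CPM in input and from 9710 to 9987 CPM in IP. Markers of other cell types had lower sums or no row. Of 11 primitive endoderm markers, 8 were measured (summed 28.0 to 28.6 CPM in input and 26.0 to 29.2 CPM in IP). So were 3 of 10 fibroblast markers (46.4 to 54.7 and 50.2 to 52.5 CPM) and 7 of 10 trophoblast markers (106 to 114 and 113 to 120 CPM). Single genes departed from this: the trophoblast marker Tfap2c was at 66.4, 70.9 and 70.1 CPM in input, and the naive marker Dppa3 at 0.688, 0.426 and 0.698 CPM. The edgeR test called 1 gene of these lists, Tfcp2l1, described below. At an unadjusted p under 0.05, 0 genes of the endoderm and fibroblast lists passed and 1 trophoblast marker was higher, and DESeq2 called 0 in these 3 lists.

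Tnrc6a, the gene that carries the tag in the other lines, did not differ detectably between the beads and the lysate of untagged cells. Its level was 98.2, 98.7 and 89.7 CPM in input and 90.4, 82.7 and 74.2 CPM in IP. The log2 ratio of IP to input was -0.21 (SE 0.20, adjusted p = 0.724, edgeR quasi-likelihood test), against 7.69 (SE 0.26) in tagged cells of the same experiment. Trim71, a stem cell RNA-binding ubiquitin ligase, was at 269.6, 278 and 267 CPM in input and 212, 252 and 249 CPM in IP (log2 ratio -0.19, SE 0.08, adjusted p = 0.328).

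A small set of RNAs differed on the beads, and it was led by a few very large rises. At an adjusted p under 0.05 (edgeR, all 24 libraries of experiment 2 in 1 fit), 144 genes differed between untagged IP and input, which is 0.728% of the genes tested. Of these, 89 were higher on the beads (0.45%) and 55 lower (0.278%). The higher genes spanned log2 ratios from 0.25 to 8.01 with a median of 1.52, and 63 of them reached 2-fold (0.319% of genes tested). The lower genes spanned -1.10 to -0.24 with a median of -0.32, and 2 of them reached 2-fold (0.0101%). Over all genes the median log2 ratio was -0.01, with quartiles at -0.14 and 0.11. At an unadjusted p under 0.05, 2475 genes passed (12.5%). In 88 of the 89 higher genes all 3 IP values lay above all 3 input values (0.445% of genes tested were called and showed that order), while 8.75% of all genes showed that order whatever their test.

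**Figure D1:**
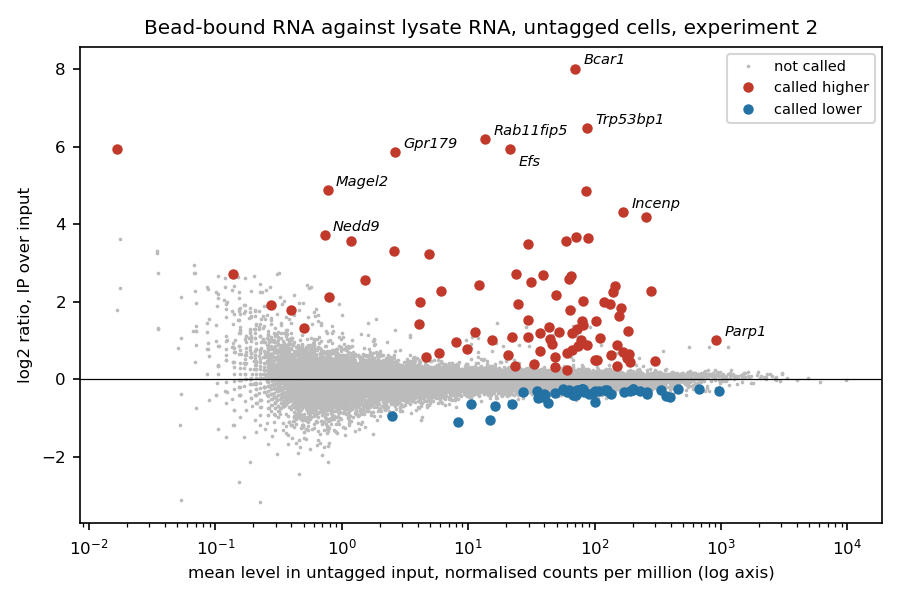
Each point is a gene of untagged cells in experiment 2, with its mean input level in CPM (log axis) on the horizontal axis and the log2 ratio of IP to input on the vertical axis; genes at 0 in every input library are left out. Red points are genes called higher at an adjusted p under 0.05, blue points genes called lower, and grey points the rest. Higher genes reach a log2 ratio of 8.01 and occur at all input levels, and lower genes lie close to 0.

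Leaving out IP replicate 2 raised the higher calls to 147 and the lower calls to 73, and 86 of the 89 and 45 of the 55 were among them. With libraries scaled by total count alone, 110 genes were higher and 464 lower. The higher calls ranged from 63 to 84 when any other library of the 6 was left out. The lower calls were 38 without input replicate 1, 4 without input replicate 2, 31 without input replicate 3, 21 without IP replicate 1 and 7 without IP replicate 3.

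The RNA most enriched on the beads encoded Bcar1 (p130Cas), the adaptor protein of focal adhesions that Src-family kinases phosphorylate. Bcar1 lies on the minus strand of chromosome 8 at 111710474 to 111743849 (GRCm38). It was at 62.9, 73.2 and 73.8 CPM in input and at 27699.9, 5765 and 20836 CPM in the 3 IP libraries, so the groups did not overlap and the IP values differed widely among themselves. The fitted ratio was 259-fold (log2 8.01, SE 0.47, adjusted p = 1.44e-11). Relative to the mean input, the 3 IP libraries stood at 396-fold, 82.4-fold and 298-fold. Bcar1 took 2.76%, 0.613% and 2.06% of all counts in the IP libraries. Per kilobase of gene length its mean IP level was 3981 CPM, beside 3851 for Eef1a1, a translation elongation factor, and 3719 for COX1, a mitochondrial mRNA of cytochrome c oxidase. Eef1a1, COX1 and the chaperone Hsp90ab1 were among the 5 RNAs with the highest IP level for a gene, with Bcar1 and Trp53bp1, and their log2 ratios were -0.01 (SE 0.07), -0.08 (SE 0.12) and 0.04 (SE 0.07), none of which passed the test.

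**Figure D2:**
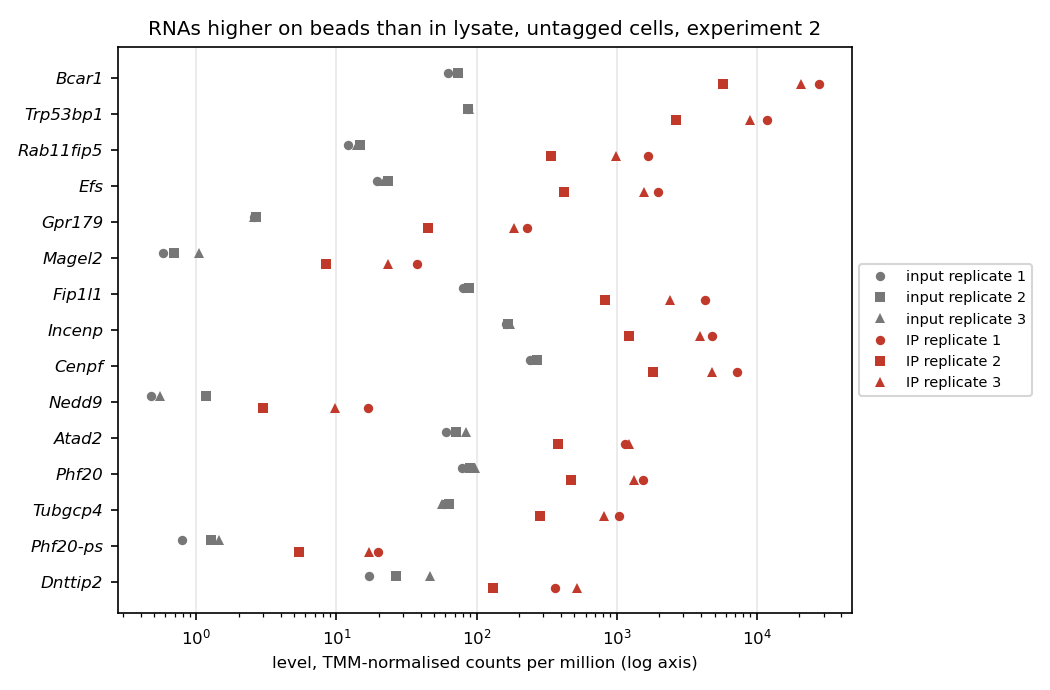
Levels in CPM (log axis) of the 15 named genes with the largest rise on the beads in untagged cells of experiment 2. Grey symbols are the 3 input libraries and red symbols the 3 IP libraries, with 1 symbol shape per replicate number. In each of the 15 genes the IP values lie above the input values, and the IP value of replicate 2 (square) is the lowest of the 3.

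The 2 other expressed relatives of Bcar1 with a raised ratio, Efs and Nedd9, are adaptors of the same p130Cas family. Efs (chromosome 14, 54916543 to 54926788, minus strand) was at 19.4, 23.2 and 21.9 CPM in input and 1978, 419.8 and 1577 CPM in IP, a ratio of 61.6-fold (log2 5.95, SE 0.44, adjusted p = 8.61e-10). Nedd9 (chromosome 13, 41309916 to 41487362, minus strand) was scarce in the lysate, at 0.476, 1.17 and 0.549 CPM, and reached 16.8, 2.99 and 9.71 CPM on the beads (13.3-fold, log2 3.73, SE 0.64, adjusted p = 0.0014). Cass4, the remaining member, was at 0.847, 1.12 and 0.948 CPM in input and 0.802, 0.885 and 1.53 CPM in IP (log2 0.15, SE 0.31, adjusted p = 0.895), so its groups overlapped. In untagged cells of experiment 1, described below, Cass4 was called higher (log2 0.82, SE 0.22, adjusted p = 0.0163, edgeR). The list of focal adhesion genes and p130Cas partners had 3 higher and 0 lower genes of 53 tested, beside 0.45% and 0.278% of all genes. The 3 were Bcar1, Efs and Nedd9, and the median log2 ratio was -0.02, beside -0.01 over all genes. At an unadjusted p under 0.05, 7 genes of that list were higher and 4 lower, and DESeq2 called 2 higher and 0 lower. In experiment 1, 15 of 52 genes of the list were called higher and 2 lower, beside 7.21% and 4.9% of all genes.

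The next strongest RNAs encoded proteins of unrelated function. Trp53bp1, which encodes the DNA double-strand break repair factor 53BP1, was at 87.1, 87.1 and 88.2 CPM in input and 11834, 2663 and 9003 CPM in IP (89.5-fold, log2 6.48, SE 0.36, adjusted p = 9.52e-12). Rab11fip5, an effector of Rab11 in recycling endosomes, was at 12.2, 14.6 and 14.0 CPM in input and 1668, 341 and 994 CPM in IP (73.5-fold, log2 6.20, SE 0.43). Input libraries agreed closely for both genes, and the spread lay in the IP libraries. Gpr179, an orphan receptor known from retinal bipolar cells, was at 2.59, 2.66 and 2.59 CPM in input and 229.8, 45.1 and 185 CPM in IP (log2 5.87, SE 0.50). Magel2, an imprinted MAGE-family gene, stood at 0.582, 0.692 and 1.05 CPM in input and 37.7, 8.46 and 23.5 CPM in IP (log2 4.88, SE 0.68). Both RNAs were rare in the lysate and no longer rare on the beads. Fip1l1, a subunit of the mRNA cleavage and polyadenylation complex, was at 80.1, 87.9 and 87.8 CPM in input and 4247, 821 and 2389 CPM in IP (29.1-fold, log2 4.87, SE 0.59, adjusted p = 7.11e-06).

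Several of the higher genes overlap a neighbour on the opposite strand. Trp53bp1 (minus strand of chromosome 2, 121194835 to 121296354) shares 3936 bases with Tubgcp4 (plus strand, 121170643 to 121198770), a component of the gamma-tubulin ring complex, which was at 58.2, 63.2 and 56.9 CPM in input and 1040.4, 285 and 807 CPM in IP (log2 3.58, SE 0.28). Fip1l1 shares 6344 bases with Lnx1 on chromosome 5, a ubiquitin ligase that was at 6.62, 6.60 and 5.14 CPM in input and 47.7, 13.4 and 29.0 CPM in IP (log2 2.29, SE 0.42), a call that was lost without IP replicate 1. Chaf1a, a subunit of the chromatin assembly factor CAF-1, shares 982 bases with Ubxn6 on chromosome 17 (log2 ratios 1.99, SE 0.21, and 1.22, SE 0.17). Mphosph8, a reader of methylated histone H3 in the HUSH silencing complex, shares 1156 bases with Gm16973 on chromosome 14 (log2 ratios 2.59, SE 0.27, and 1.23, SE 0.18). The library kit keeps strand, but whether the counting used it is not given in the sources used here, so reads of the partners cannot be told apart. The names of the pairs outside the leading 15 genes were chosen after their values were seen.

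A further group of the leading RNAs encodes proteins of chromosomes and chromatin. Incenp, the scaffold of the chromosomal passenger complex that carries Aurora B kinase, was at 162, 167 and 173 CPM in input and 4770.2, 1233 and 3917 CPM in IP (19.8-fold, log2 4.31, SE 0.28, adjusted p = 9.81e-11). Cenpf, a large kinetochore protein, was at 241, 269 and 254 CPM in input and 7281, 1818 and 4780.0 CPM in IP (18.2-fold, log2 4.18, SE 0.28). Both mitotic genes kept a wide gap between the lowest IP and the highest input value. Atad2, a bromodomain ATPase, stood at 60.5, 71.4 and 83.5 CPM in input and 1139, 381 and 1233 CPM in IP (log2 3.68, SE 0.27). Phf20, a subunit of a histone acetyltransferase complex, stood at 78.5, 89.8 and 98.2 CPM in input and 1544, 471 and 1339 CPM in IP (log2 3.65, SE 0.26). Dnttip2, which encodes a terminal deoxynucleotidyltransferase-interacting protein, varied most in input, at 17.0, 26.5 and 46.4 CPM, and was at 362, 131 and 526 CPM in IP (log2 3.50, SE 0.41). Phf20-ps, a pseudogene of Phf20, had a ratio of 11.9-fold (log2 3.57, SE 0.37), which is uncertain because it can share reads with Phf20. No list of chromatin genes was tested, so these are single genes and not a count for the class.

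Relatives of genes on the bead list did not always share its enrichment. The families in this paragraph and the next were picked after the values were seen, around genes already called. Their shares of called genes are therefore raised by the choice. Differences between their members were not tested. Of the 9 ubiquitin ligases of the Nedd4 family, 8 were tested and 4 were higher, beside 0.45% of all genes. Wwp2 led, at 62.9, 67.4 and 64.2 CPM in input and 549.7, 199 and 494 CPM in IP (6.38-fold, log2 2.67, SE 0.21, adjusted p = 2e-09). Nedd4l was at log2 1.05 (SE 0.14), Itch at 1.02 (SE 0.14) and Wwp1 at 0.57 (SE 0.11), the last of which lost its call without IP replicate 1. The founding member Nedd4 was at 1343, 1506 and 1534 CPM in input and 1379.6, 1394 and 1383 CPM in IP (log2 -0.08, SE 0.07, adjusted p = 0.72), and Smurf1 (-0.05, SE 0.06), Smurf2 (-0.15, SE 0.08) and Hecw2 (0.28, SE 0.23) did not pass the test either. In untagged cells of experiment 1 Nedd4 was called higher (log2 0.47, SE 0.14, adjusted p = 0.0329, edgeR). Wwp2, Nedd4l, Itch and Wwp1 were called higher there too, and Smurf1, Smurf2 and Hecw2 were not called.

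The 3 TET dioxygenases, which oxidise 5-methylcytosine, included a higher and a lower gene. Tet1 was at 132, 158 and 145 CPM in input and 1235, 347 and 730.0 CPM in IP (5.31-fold, log2 2.41, SE 0.26, adjusted p = 8.1e-07). Tet2 was lower on the beads, at 356, 386 and 357 CPM in input and 280.2, 296 and 245 CPM in IP (log2 -0.42, SE 0.08, adjusted p = 0.0037). Tet3 had a log2 ratio of -0.45 (SE 0.19, adjusted p = 0.309). Of the DNA-dependent poly(ADP-ribose) polymerases, Parp1 (2.02-fold, log2 1.01, SE 0.16) and Parp2 (1.80-fold, log2 0.85, SE 0.13) were higher, and Parp3 was at log2 0.73 (SE 0.24, adjusted p = 0.164). The histone acetyltransferase gene Kat6b was higher (4.88-fold, log2 2.29, SE 0.22), while its paralog Kat6a had a log2 ratio of -0.27 (SE 0.09, adjusted p = 0.172). Atad2b, the paralog of Atad2, was higher too (log2 2.50, SE 0.26). Phf20l1, the paralog of Phf20, was at 0.09 (SE 0.11, adjusted p = 0.79). Arid4a, a chromatin-binding ARID protein, was at log2 2.71 (SE 0.23, adjusted p = 1.72e-08) and Arid4b at 0.28 (SE 0.12, adjusted p = 0.304). The LEM-domain proteins, most of which sit at the inner nuclear membrane, were likewise picked around called genes, so their share is raised. Of these 6 proteins, 3 were higher, beside 0.45% of all genes. They were Lemd3 (log2 1.95, SE 0.29), Lemd2 (1.09, SE 0.17) and Tmpo (0.49, SE 0.12). Tmpo lost its call when any 1 library other than IP replicate 2 was left out, and in 5 of 7 processing alternatives. Emd (0.26, SE 0.07, adjusted p = 0.0587), Ankle2 (0.23, SE 0.10, adjusted p = 0.33) and Ankle1 (0.00, SE 0.13, adjusted p = 0.998) did not pass. In untagged cells of experiment 1 Phf20l1 was called higher (log2 0.55, SE 0.11, adjusted p = 0.00122, edgeR). Parp1 (0.30, SE 0.13), Parp2 (0.18, SE 0.09), Tmpo (0.22, SE 0.08) and Tet2 (-0.34, SE 0.16) were not called there. Tet1, Kat6b, Atad2b, Lemd2 and Lemd3 were called higher in both experiments.

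Among the 89 higher genes, 82 were annotated as protein coding by RefSeq (GRCm38.p6), the pseudogene Phf20-ps and the long non-coding RNA Gm16973 were the 2 of another kind, and the rest were not matched, and 6 had no usable symbol. ENSMUSG00000118138 was at 2.28, 2.71 and 2.84 CPM in input and 35.6, 10.8 and 32.1 CPM in IP (log2 3.31, SE 0.30), and ENSMUSG00000097971 was at 68.3, 60.9 and 68.8 CPM in input and 124, 75.5 and 136 CPM in IP (log2 0.76, SE 0.13). For 2 further unnamed genes the input held 3 counts or fewer in every library, and no fold is given. Another 4 of the higher genes stayed under 2 CPM even on the beads: Ube2d2b (0.159, 0.0532 and 0.200 CPM in input, 0.863, 1.33 and 0.625 CPM in IP), Adam1b, BC051142 and Pdha2, with log2 ratios of 2.71 (SE 0.54), 1.92 (SE 0.46), 1.79 (SE 0.40) and 1.33 (SE 0.32). These 4 were named after their values were seen, they rest on few reads, and each lost its call when input replicate 2 was left out.

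In experiment 2, where 0.45% of all genes were called higher and 0.278% lower, abundant RNA classes gave few calls. Their ratios lay close to 1. Of the 86 cytosolic ribosomal protein genes, 0 were called by edgeR; 27 were higher and 0 lower at an unadjusted p under 0.05, and DESeq2 called 4 higher. Their median log2 ratio was 0.12, with 85 of 86 above 0, beside -0.01 over all genes. Nuclear-encoded respiratory chain genes had a median of 0.15 with 84 of 87 above 0, and 2 were called higher, among them the complex I subunit Ndufb3 (49.8, 46.5 and 48.6 CPM in input, 65.9, 56.0 and 60.1 CPM in IP, log2 0.33, SE 0.07). At an unadjusted p 37 respiratory chain genes were higher, and DESeq2 called 13 higher. Ndufb3 lost its call without input replicate 2 or IP replicate 1, and with libraries scaled by total count alone. Glycolysis genes had a median of 0.13 with 0 of 18 called (8 higher at an unadjusted p, 0 by DESeq2). Mitochondrially encoded mRNAs had a median of -0.10 with 0 of 13 called (1 lower at an unadjusted p, 0 by DESeq2). Translation factors had a median of 0.03 with 0 of 77 called (9 higher and 3 lower at an unadjusted p, 1 higher by DESeq2). In untagged cells of experiment 1, 9 of the 13 mitochondrially encoded mRNAs were called lower and 0 higher (median -0.81). Median log2 ratios there were -0.01 for cytosolic ribosomal protein genes and -0.03 for respiratory chain genes. Over all genes of that experiment, 7.21% were called higher and 4.9% lower.

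The lists of non-coding RNAs and of histone genes held no called gene in experiment 2. Gm16973, named above, is on none of them. The listed long non-coding RNAs had a median of -0.03 with 0 of 31 called (1 higher and 3 lower at an unadjusted p, 1 lower by DESeq2). Small nucleolar and Cajal RNAs had a median of -0.11 with 0 of 40 called (1 each way at an unadjusted p, 0 by DESeq2). The 2 genes tested of the small nuclear, 7SK, 7SL and RNase P group gave 0 calls (0 at an unadjusted p, 0 by DESeq2). In untagged cells of experiment 1, 7 of 34 small nucleolar and Cajal RNAs were called higher and 0 lower (median 0.51). Of the 31 long non-coding RNAs, 7 were called higher there and 2 lower. The histone list was matched by gene name and includes H1f0 and H1f10, so it is not limited to replication-dependent histone genes. It had a median of -0.01 with 0 of 55 called (4 higher at an unadjusted p, 0 by DESeq2).

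Zinc finger genes named Zfp had a median of -0.07 with 1 higher and 3 lower of 357, beside 0.45% and 0.278% of all genes. Zfp697 (1.27, 1.92 and 1.40 CPM in input, 15.6, 2.43 and 9.54 CPM in IP, log2 2.57, SE 0.53) was higher. Zfp106 (-0.26, SE 0.06), Zfp26 (-0.39, SE 0.09) and Zfp369 (-0.47, SE 0.09) were lower. At an unadjusted p 7 genes of this list were higher and 42 lower, and DESeq2 called 0 higher and 8 lower. Zfp697 lost its call when any 1 library other than IP replicate 2 was left out. Actin, tubulin and motor genes gave 1 lower call of 111, Kif13a, a kinesin of endosomal transport (log2 -0.25, SE 0.06), which lost its call when any 1 of the 6 libraries was left out, and a median of -0.03. In that list 9 genes were higher and 11 lower at an unadjusted p, and DESeq2 called 1 each way. Solute carriers (0 of 254, median -0.03), chaperones (0 of 79, median 0.05), SR and hnRNP splicing factors (0 of 33, median 0.02) and collagens and laminins (0 of 38, median -0.06) gave no call. At an unadjusted p these 4 lists had 7 higher and 12 lower, 8 and 2, 1 and 1, and 1 and 0, and DESeq2 called 0 in each. In untagged cells of experiment 1, 49 of 239 solute carriers were called lower and 6 higher (median -0.24). Of 33 splicing factors, 8 were called higher there and 0 lower. Of 351 Zfp genes, 30 were called higher there and 14 lower (median -0.05), beside 7.21% and 4.9% of all genes.

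Of 15 genes of GW182 and Argonaute silencing, 1 was called lower, Ago2, beside 0.278% of all genes, and DESeq2 called 2 lower. The call of Ago2 was lost without input replicate 2, IP replicate 1 or IP replicate 3. In that list 2 of 15 genes had a ratio above 0 (median -0.20), beside 9608 of 19778 over all genes (median -0.01). Genes of deadenylation, decapping and P-bodies had a median of -0.07 with 0 of 27 called (0 higher and 5 lower at an unadjusted p, 2 lower by DESeq2). Reported TRIM71 targets (0 of 8, median -0.10) and reported miR-290 family targets (0 of 10, median 0.00) gave no call, with 1 lower in each at an unadjusted p and 0 by DESeq2. Naive pluripotency genes had 1 lower call of 15, the transcription factor Tfcp2l1 (928, 1007 and 948 CPM in input, 768, 797 and 784 CPM in IP, log2 -0.29, SE 0.06), and a median of 0.01. Tfcp2l1 lost its call without input replicate 2, IP replicate 1 or IP replicate 3.

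Called genes were long. Median gene length was 6376 bases for the 89 higher genes and 9438 bases for the 55 lower genes, beside 3360.5 bases over all genes tested. Among the shortest quintile of genes (39 to 1329 bases) 0.126% were higher and 0% lower, and among the longest quintile (6479 to 123179 bases) 1.06% were higher and 1.14% lower. The median log2 ratio went from 0.04 in the shortest quintile to -0.09 in the longest. Longer genes gather more reads and so are tested with more precision, and the part this has in the counts was not tested. By input level, 0.253% of the lowest quintile (up to 1.26 CPM) and 1.09% of the highest quintile (above 56.8 CPM) were higher.

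The 55 RNAs that were lower on the beads changed little. In 55 of 55 all 3 IP values lay below all 3 input values, an order that 11.1% of all genes showed whatever their test. Klhl11, a BTB-kelch adaptor of Cullin-3 ubiquitin ligases, was at 15.4, 17.4 and 16.2 CPM in input and 11.1, 10.6 and 8.52 CPM in IP (log2 -0.70, SE 0.10, adjusted p = 0.000201). Gm6284, a predicted gene, had the largest fall among named genes, from 7.46, 10.3 and 7.33 CPM in input to 5.00, 4.37 and 2.33 CPM in IP (log2 -1.10, SE 0.23). The unnamed gene ENSMUSG00000103509 fell by 1.04 on the log2 scale (SE 0.23) and ENSMUSG00000091071 by 0.40 (SE 0.09). Ago2, which encodes the Argonaute protein that slices and silences miRNA targets, was at 373, 434 and 369.6 CPM in input and 290.4, 313 and 255 CPM in IP (0.729-fold, log2 -0.46, SE 0.10, adjusted p = 0.0173). The falls of named genes other than Gm6284 were under 2-fold. Without input replicate 2 only 4 of the 55 stayed called and without IP replicate 3 only 7, and Ago2, Tet2, Zbtb37, Ino80d and Gm6284 lost their calls in both cases.

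**Figure D3:**
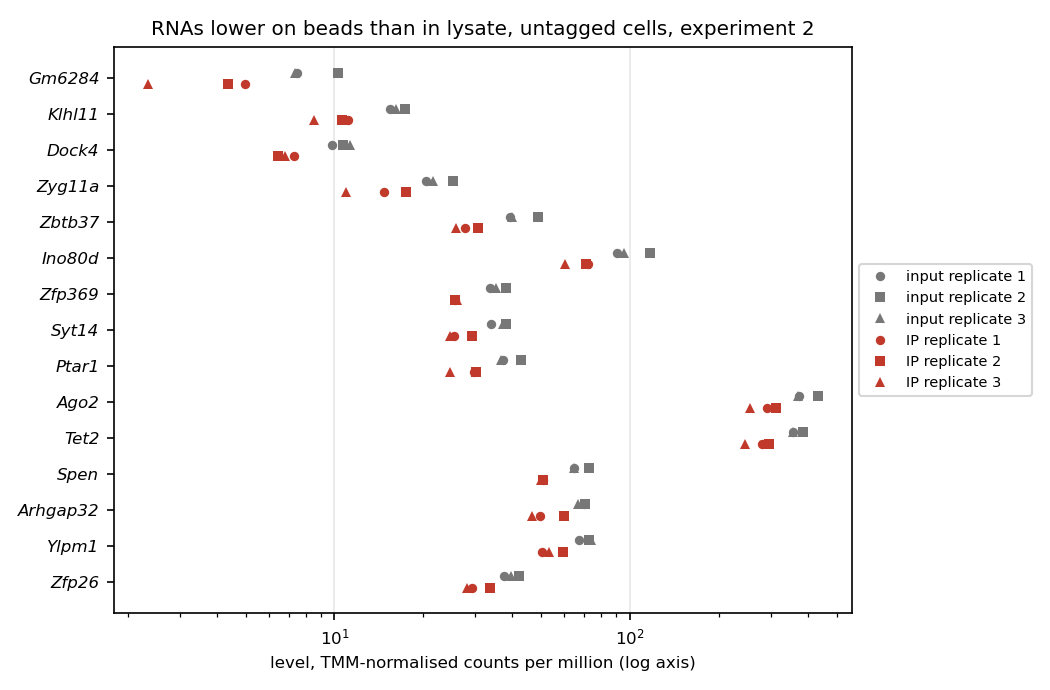
Levels in CPM (log axis) of the 15 named genes with the largest fall on the beads in untagged cells of experiment 2. Grey symbols are the 3 input libraries and red symbols the 3 IP libraries, with 1 symbol shape per replicate number. In each gene the 3 IP values lie below the 3 input values, with ratios from 0.466-fold (Gm6284) to 0.764-fold (Zfp26).

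Other lower genes encoded regulators of several kinds. Zbtb37, a BTB zinc finger protein, was at 39.3, 49.0 and 39.8 CPM in input and 27.6, 30.6 and 25.7 CPM in IP (log2 -0.61, SE 0.13). Ino80d, a subunit of the INO80 chromatin remodeller, was at 90.3, 117 and 95.7 CPM in input and 72.2, 70.9 and 60.1 CPM in IP (log2 -0.58, SE 0.10). In both, input replicate 2 was the highest of the 6 libraries. Dock4, an activator of Rac GTPase (log2 -0.64, SE 0.15), Zyg11a, a substrate receptor of Cullin-2 ligases (-0.63, SE 0.13), the synaptotagmin Syt14 (-0.46, SE 0.10), Ptar1 (-0.46, SE 0.10), the transcriptional repressor Spen (-0.42, SE 0.08), the GTPase-activating protein Arhgap32 (-0.41, SE 0.10) and Ylpm1 (-0.39, SE 0.09) made up the rest of the 15 largest falls with Zfp369, Zfp26 and Tet2. Klhl11, Cmip and Tcf20 were the 3 lower genes that stayed called under each alternative that gave them an adjusted p (DESeq2 gave none for Klhl11) and with each library of the 6 left out, with log2 ratios of -0.70, -0.38 and -0.29, and Tcf20 was named for that reason after its values were seen.

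Experiment 1 repeated the untagged pull-down with separate libraries, and its table was fitted on its own. There 2273 of 18772 genes were called (12.1%), with 1354 higher (7.21%) and 919 lower (4.9%), and at 2-fold or more 331 were higher (1.76%) and 46 lower (0.245%). The number of calls there was 10201 with scaling by total count alone and 4612 with only the 6 untagged libraries. It was 1431, 1446 and 1447 without input replicate 1, 2 or 3 and 1370 without IP replicate 2, so the shares of all genes used for comparison move with these choices. Of the 89 genes higher on the beads in experiment 2, 86 were tested in experiment 1, 83 had a ratio above 0 and 74 were called higher (86% of those tested, beside the 7.21% of all genes). Seen from experiment 1, 5.5% of its higher genes that were tested in experiment 2 were also called higher there. Of the 55 lower genes, 18 were called lower in experiment 1 (32.7%, beside 4.9% of all genes) and 48 had a ratio below 0, and 1 of the 55, Ylpm1, was called higher there (log2 0.33, SE 0.11). Among the 18 called lower in both were Zbtb37, Zfp369, Ago2, Arhgap32, Cmip, Tead1, Fbxl18, Rad54l2, Ypel2 and Hipk1. Across the 18553 genes tested in both, Spearman's rank correlation between the log2 ratios was 0.170 and Pearson's r 0.377, given as a description over genes, which are not independent.

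Bead genes held a share of the counts that differed between the experiments, and such shares do not give the amount of RNA on the beads. The share of all counts held by the bead genes was 0.738% ± 0.039 (SD, n = 3) in untagged input of experiment 2 and 8.47%, 2.48% and 6.24% in its IP libraries. The same genes held 0.747% ± 0.00344 (SD, n = 3) of input and 19.6%, 23.9% and 19.9% of IP counts in experiment 1, over the 86 genes measured there. Without IP replicate 2 the mean IP share in experiment 2 was 7.36%, beside 5.73% ± 3.03 (SD, n = 3) with it. In a fit over the 12 untagged libraries the ratio differed between the experiments for 24 of the 86 genes in the lower direction (6.81% of all 18271 genes) and for 10 in the higher direction (4.49%). The genes were chosen in experiment 2, so these counts share libraries with the choice, and experiment and batch cannot be told apart.

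Bcar1, Efs and several of their strongest companions had the larger ratio in experiment 1. Bcar1 had a log2 ratio of 10.70 (SE 0.30) there, 2.68 above experiment 2 (SE of the difference 0.44, adjusted p = 0.00036). Trp53bp1 differed by -2.82 (SE 0.42), Rab11fip5 by -2.97 (SE 0.49), Efs by -2.19 (SE 0.46) and Fip1l1 by -3.10 (SE 0.45), each as experiment 2 minus experiment 1. For Nedd9 the difference was -2.51 (SE 0.88, adjusted p = 0.0744, edgeR), which did not pass the test. Incenp and Phf20 went the other way: Incenp had a log2 ratio of 2.77 (SE 0.22) in experiment 1, a difference of 1.54 (SE 0.40, adjusted p = 0.0147), and Phf20 one of 2.22 (SE 0.15), a difference of 1.43 (SE 0.38, adjusted p = 0.0175). Kat6b differed by 1.19 (SE 0.32, adjusted p = 0.018). Atad2 had nearly equal ratios, 3.68 in experiment 2 and 3.63 in experiment 1 (difference 0.05, SE 0.39, adjusted p = 0.966). Without IP replicate 2 of experiment 2 the number of bead genes with a larger ratio in experiment 2 went from 10 to 28, and 25 had a smaller one.

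**Figure D4:**
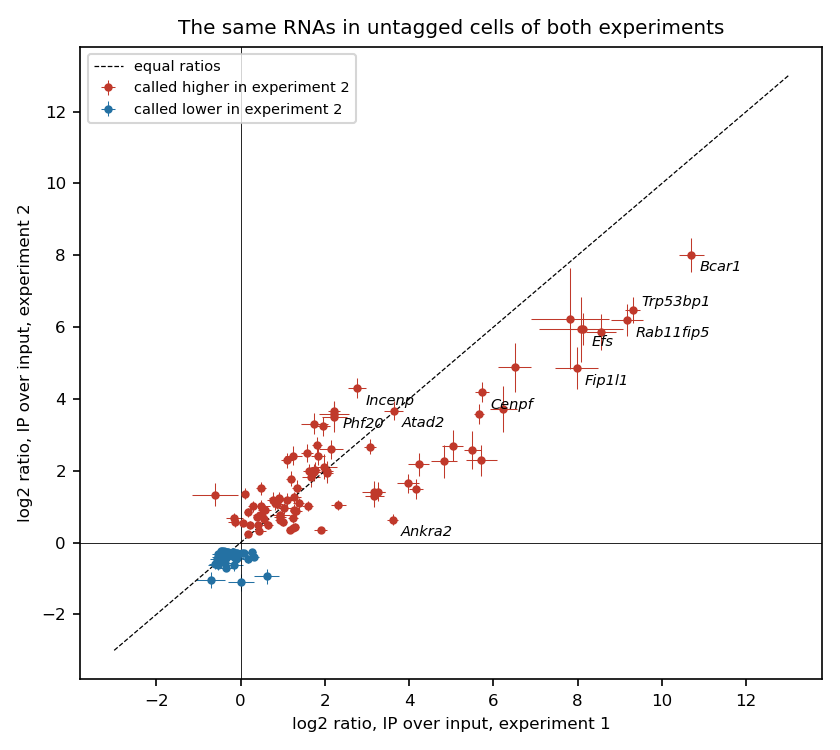
Log2 ratio of IP to input in untagged cells of experiment 1 (horizontal axis) and experiment 2 (vertical axis), with bars of 1 SE, for the genes called higher (red) or lower (blue) in experiment 2 that were tested in both. The dashed line marks equal ratios. Bcar1, Trp53bp1, Rab11fip5, Efs and Fip1l1 lie below it, Incenp and Phf20 above it, and Atad2 on it.

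Most of the bead RNAs were also higher in IP when the cells carried the tag. In tagged cells of experiment 2, whose input and IP libraries are separate from the untagged ones, 78 of the 89 genes were called higher in IP against input, beside 23.2% of all genes, and 4 lower, beside 15.4%. In Trim71KO cells 72 were called higher (beside 26.9%) and 3 lower (beside 22.3%), and in Ago2KO cells 67 were called higher (beside 19.7%). Median log2 ratios of the 89 genes were 1.62, 1.32 and 1.15 in tagged, Trim71KO and Ago2KO cells, beside 1.52 in untagged cells, where the genes were chosen. Bcar1 had log2 ratios of 8.22 (SE 0.47), 7.05 and 7.46 in the 3 tagged lines. In tagged IP the bead genes held 6.14%, 5.03% and 3.86% of all counts and Tnrc6a 2.03%, 1.56% and 1.22%.

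**Figure D5:**
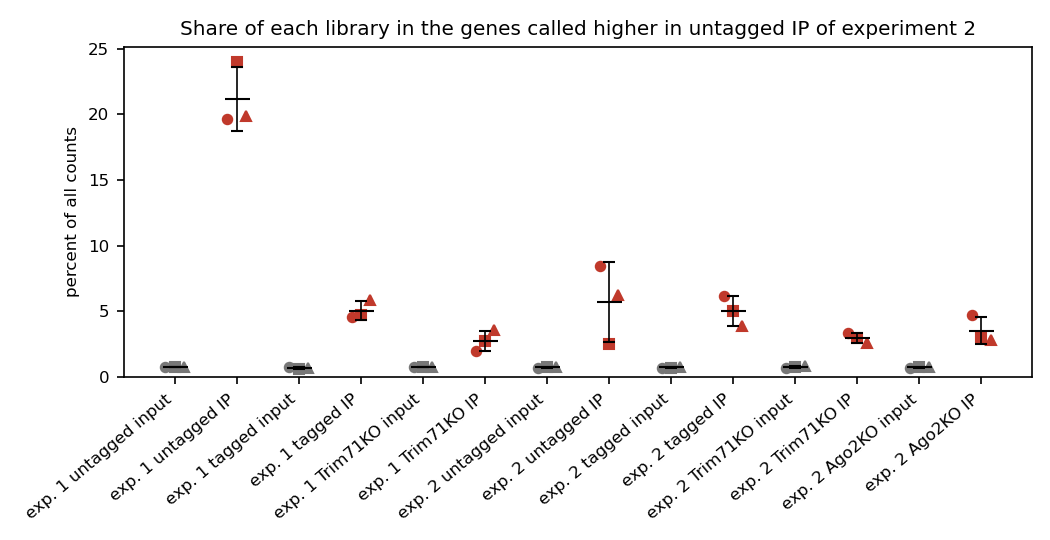
Percent of all counts held by the 89 genes called higher on the beads in untagged cells of experiment 2 (86 of them in experiment 1), for each of the 42 libraries. Symbols are libraries (circle, square and triangle for replicates 1, 2 and 3; grey for input, red for IP), and the black marks are means with bars of 1 SD over 3 libraries. All input libraries lie under 1%, the untagged IP libraries of experiment 1 between 19.6% and 23.9%, and those of experiment 2 between 2.48% and 8.47%.

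Setting tagged against untagged cells within experiment 2, the difference of the IP to input ratios was tested for the 89 bead genes, which were chosen on the same untagged libraries. Of the 89, 3 were higher with the tag (beside 18.9% of all genes): Cgas, the cytosolic DNA sensor (difference 1.45, SE 0.40, adjusted p = 0.00692), Ankra2 (1.01, SE 0.21, adjusted p = 0.000519) and Mbd1, a methyl-CpG binding protein (0.79, SE 0.29, adjusted p = 0.0447). A further 9 were lower with the tag (beside 8.77%), a direction that the choice of the genes favours. Among them were Ube2d2b, BC051142, Adam1b and Pdha2, with differences of -4.06, -2.78, -2.86 and -2.35. Those named rest on few reads and may have passed the filter on low counts only through untagged IP, where they were chosen as high. Ankra2 lost its own call in untagged cells when any 1 library other than IP replicate 2 was left out, and in 3 of 7 processing alternatives. For Bcar1 the difference was 0.20 (SE 0.50, adjusted p = 0.805), so equal recovery is not shown. Without untagged IP replicate 2, 22 of the 89 were lower with the tag.

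Of the 55 genes lower on the beads without the tag, 37 had a higher ratio with it (beside 18.9% of all genes) by edgeR, and 24 with libraries scaled by total count alone. The choice of these genes used the same untagged libraries, so the direction of this count is favoured by the choice. Their own ratios in tagged cells did not enter the contrast behind the choice, though the tagged libraries were part of the fit that set its filter and spread. These ratios were called higher for 21 and lower for 11 (beside 23.2% and 15.4% of all genes), with a median of 0.04. Zbtb37 changed most, from a log2 ratio of -0.61 in untagged cells to 2.54 (SE 0.12) in tagged, 1.82 in Trim71KO and 1.61 in Ago2KO cells. Ago2 went from -0.46 to 1.23 (SE 0.10) in tagged cells and was at 1.56 in Trim71KO and 0.26 in Ago2KO cells. Cmip, by contrast, had ratios of -0.38 in untagged and -0.47 (SE 0.07) in tagged cells (difference -0.09, SE 0.10, adjusted p = 0.547).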

How the data were processed

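Each experiment has 1 deposited table that holds gene counts, not normalized, next to RPKM values and gene lengths from the authors, per the file headers. The submitters' processing notes name bcl2fastq 2.20, STAR 2.7.3a and the builds GRCm38 and mm10; the counting tool, annotation and use of strand are not given in the sources used here. RPKM served only to check library sizes. Counts were tested with the quasi-likelihood test of edgeR 4.0.16 (TMM, filterByExpr, group means, Benjamini-Hochberg) over all 24 libraries of experiment 2, and experiment 1 (18 libraries) was fitted apart. The SE of a log2 ratio is its size over the square root of F. Alternatives included DESeq2 1.42.0 and library-size scaling. On simulated counts for the untagged contrast, 145 of 150 genes changed 2-fold or more were recovered, with 7 false calls among 19629 genes. For the tagged against untagged difference it was 133 of 150 with 4. With smaller changes included, 173 of 200 and 147 of 200 were recovered, so changes under 2-fold were missed more often. Counts were drawn independently for each gene and library, so a library that stands apart, as IP replicate 2 did, was not simulated.

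Named genes were the 15 largest changes each way among genes with a symbol, a mean log2 CPM of at least 2 and groups that do not overlap; the 5 highest in IP; Tnrc6a, Trim71, Ago2 and Bcar1; up to 10 each way meeting the rule in both experiments; and called list members. A planned group of genes defined by their protein sequence was not analysed here. The list of mitochondrial mRNAs was matched to the spellings of the table after it was seen, and mitochondrial rRNAs and tRNAs matched no row. Some called genes are not reported here. Members and lists were chosen with earlier results of these data known. RefSeq symbols and coordinates (GRCm38.p6) matched 84 of the 89 higher genes. All pairs of untagged replicates differed by more than counting noise (chi-square per gene 2.87 or more). In experiment 2 the values were 49.8, 13.9 and 26.8 for IP pairs and 4.33, 5.93 and 3.72 for input pairs.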

Additional observations from a re-analysis of the deposited data

Results flagged for a closer look

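Named genes whose log2 ratio of IP to input differed between groups in a fit across all genes (edgeR, adjusted p under 0.05) are given here as values. They are 35 differences between the experiments and 42 between tagged and untagged cells, over 102 genes looked at. The 2 counts share the untagged libraries of experiment 2.

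In untagged cells, experiment 2 minus experiment 1 was below 0 for the bead RNAs Lnx1 (-3.42), Fip1l1 (-3.10), Ankra2 (-2.98), Rab11fip5 (-2.97), Zfp697 (-2.93), Trp53bp1 (-2.82), Bcar1 (-2.68), Gpr179 (-2.68), Jmjd1c (-2.56), Ttf1 (-2.33), Efs (-2.19), Tubgcp4 (-2.07), Unc13b (-2.05), Ecd (-1.87), Map1b (-1.75), Zcrb1 (-1.55), Cenpf (-1.55) and Nedd4l (-1.26). It was below 0 for 4 genes lower on the beads, Gm6284 (-1.11), Ylpm1 (-0.72), Ptar1 (-0.64) and Gsk3b (-0.53), and for 4 genes not called in experiment 2, Nedd4 (-0.54), Phf20l1 (-0.45), Kat6a (-0.37) and Smurf2 (-0.35). The difference was above 0 for Incenp (1.54), Phf20 (1.43), Kat6b (1.19), Gstm5 (0.83), Parp1 (0.71), Lrrc27 (0.71), Parp2 (0.67), COX1 (0.37) and Emd (0.29).

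Within experiment 2, tagged minus untagged was above 0 for Tnrc6a (7.90), which carries the tag, and for Zbtb37 (3.15), Tet3 (2.24), Phf20l1 (1.97), Arid4b (1.79), Ago2 (1.69), Ino80d (1.49), Kat6a (1.45), Cgas (1.45), Abl2 (1.42), Trim71 (1.41), Ptar1 (1.22), Ypel2 (1.09), Ankra2 (1.01), Dock4 (0.79), Mbd1 (0.79), Klhl11 (0.74), Syt14 (0.72), Smurf2 (0.71), Tead1 (0.65), Fbxl18 (0.63), Zfp26 (0.61), Hipk1 (0.61), Gsk3b (0.61), Zyg11a (0.59), Zfp369 (0.47), Tet2 (0.38), Tfcp2l1 (0.37), Kif13a (0.28), Smurf1 (0.25) and Tcf20 (0.21). It was below 0 for Ube2d2b (-4.06), Adam1b (-2.86), BC051142 (-2.78), Pdha2 (-2.35), Gstm5 (-1.12), COX1 (-0.71), Lrrc27 (-0.57), Ndufb3 (-0.48), Ankle2 (-0.44), Eef1a1 (-0.34) and Emd (-0.34). The values of Ube2d2b, Adam1b, BC051142 and Pdha2 rest on few reads.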

How the results depend on the processing

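No value of a called gene changed sign, and 60 of the 89 higher and 3 of the 55 lower genes stayed called under each alternative that gave them an adjusted p and with each library left out. Scaling by library size alone gave 574 calls in untagged cells of experiment 2 with 464 lower and 17 lower by 2-fold (19.2% of calls higher, beside 61.8%), 10201 calls in experiment 1 and 6960 between the experiments, beside 2273 and 2066. Without a filter on low counts 30 genes were lower. DESeq2 gave 282 calls, 151 of them lower and 0 lower by 2-fold, and shared 72 of the 89 higher genes, 17 of which it left without an adjusted p. With only its 6 untagged libraries experiment 1 had 4612 calls. In experiment 2 the same setting gave 88 higher and 51 lower calls, and only 77 of the 89 higher and 30 of the 55 lower genes were among them. The replicate block gave 266 calls with 159 lower; input and IP share only a number (correlations of deviations 0.000514, 0.0532 and 0.175). With 1 library left out, calls ranged from 70 to 220, higher from 63 to 147, lower from 4 to 73, 2-fold from 44 to 90, 2-fold higher from 42 to 85 and 2-fold lower from 0 to 5; experiment 1 had 1370 to 1818, the difference between experiments 1447 to 2072 and tagged minus untagged 4655 to 5906, beside 5479. Genes under about 1 CPM rest on few reads.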

Other observations

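A further 7 bead RNAs were named after their values were seen. Senp7, a SUMO protease, was at 5.03, 4.68 and 4.94 CPM in untagged input and 64.4, 19.2 and 54.8 CPM in IP (log2 ratio 3.23, SE 0.27). Ep400, an ATPase of a chromatin remodelling complex, had a log2 ratio of 1.95 (SE 0.24), the proliferation marker Mki67 one of 1.83 (SE 0.28), the chromatin remodeller Atrx one of 1.26 (SE 0.15) and the histone methyltransferase Kmt2b one of 1.08 (SE 0.15). Outside chromatin, Unc13b, a vesicle priming factor, was at 2.18 (SE 0.31) and Yap1, the coactivator of the Hippo pathway, at 0.88 (SE 0.13). All 7 were higher by edgeR in each alternative run and with each library of the 6 left out, and all 7 were called higher in experiment 1.

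Among the lower RNAs, the tyrosine kinase gene Abl2 was at 132, 146 and 129 CPM in input and 104, 109.6 and 101 CPM in IP (log2 ratio -0.37, SE 0.07). The kinase gene Gsk3b had a log2 ratio of -0.27 (SE 0.06) and Arid1a, a subunit of BAF chromatin remodellers, one of -0.28 (SE 0.07). Each of these 3 lost its call without input replicate 2, IP replicate 1 or IP replicate 3. Gsk3b and Arid1a also lost it without input replicate 3, and in 2 and 3 of 7 processing alternatives.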
